A study of Mus musculus with 3 samples.

Results

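The tendon-like cells described here are single cells of the mouse embryonic trunk that carried RNA of Scx or Tnmd, a pair of genes that mark the tendon lineage. They were taken as barcodes with a minimum of 4000 unique molecular identifiers (UMIs, each standing for 1 captured RNA molecule) and 500 genes, a mitochondrial share of no more than 10%, and at least 3 UMIs of Scx and Tnmd together, with fewer than 10 of Col2a1 and none of Myog, Myf5 or Elavl3. The limits on Col2a1, a cartilage collagen, Myog and Myf5, factors of skeletal muscle, and Elavl3, a neuronal gene, leave out cells with 10 or more UMIs of the first or any of the others. There were 388 such cells among 7114 on embryonic day E13.5 and 508 among 6140 on E12.5, 896 of 13254 in all. The comparison cells were all other cells of the same library with at least 1 UMI of Pdgfra, a receptor gene of mesenchymal cells, and numbered 3027 at E13.5 and 2111 at E12.5.

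The study took mouse trunks between the third cervical and the second thoracic segment, without forelimbs and thoracic organs but with the neural tube, and asked where the brown fat depots of that region come from. The labels name no strain, allele or treatment. Each stage is 1 droplet library of whole dissociated trunk, pooled from 3 littermates, so the embryos cannot be told apart and no difference between stages or groups of cells has a replicate check. All intervals below are exact 95% intervals that cover counting error only, and no test was run over cells.

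Tendons join muscle to bone and are built by fibroblasts that lay down aligned collagen fibrils. Scx, a basic helix-loop-helix transcription factor, marks tendon and ligament progenitors from early in the limb and trunk, while Tnmd, a membrane glycoprotein, marks cells further along the tendon program. Mkx and Egr1 are other transcription factors of tendon, TGF-beta and FGF signals maintain and induce Scx-positive progenitors, and in the trunk many of these progenitors come from the sclerotome next to the forming muscle.

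Median depth was 10112.5 UMIs in members and 10392 in the other Pdgfra cells at E13.5, against 11864 and 12118 at E12.5. The libraries shared 10 cell barcodes. A doublet caller marked 9 of the members at E13.5 and 3 at E12.5. There were 47 members (12.1%) at E13.5 and 36 (7.09%) at E12.5 that held at least 3 UMIs summed over 12 genes of other cell types, beside 11.2% of the other Pdgfra cells at E13.5 and 13.2% of those at E12.5. At least 3 UMIs of 5 chondrogenic markers outside the rule were held by 12.6% of members and 4.92% of the others at E13.5, and by 20.7% and 15.9% at E12.5. For skeletal muscle markers these shares were 5.15% of members and 3.50% of the others at E13.5, with 5.12% and 5.50% at E12.5, and for neuron markers 4.64% and 5.85%, with 5.71% and 11.3%. The members thus still held cells with RNA of cartilage, muscle and neurons, and the part of these in the results was tested only where equal limits or the leaving out of cells is named below. Xist was found in 95.9% of members at E13.5 and 28.3% at E12.5. A Y-linked gene was found in 3.61% at E13.5 and 65.7% at E12.5, so the pools differed in sex as well as in stage. Free RNA, read from haemoglobin, came to 2.29% of the UMIs of members and 2.29% of those of other Pdgfra cells at E13.5, and to 1.55% and 1.52% at E12.5.

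Because Scx, Tnmd and the limits chose the cells, their values only describe the choice. Levels are given in CPM, the UMIs of a gene summed over a group of cells, divided by all UMIs of the group and scaled to 1000000. At E13.5 Scx stood at 398 CPM in members and 13.9 CPM in the other Pdgfra cells, and Tnmd at 219 CPM in members and 10.4 CPM in the others. At E12.5 Scx stood at 356 CPM in members and 35.7 CPM in the others, with Tnmd at 70.9 and 4.93 CPM. The members of both stages thus held much Scx, while most Tnmd lay in the later library. Exactly 3 UMIs of Scx and Tnmd were held by 100 members at E13.5 and 144 at E12.5, just inside the threshold. Just outside it, 205 cells (E13.5) and 241 (E12.5) held exactly 2 UMIs within the other limits. A further 81 cells (E13.5) and 145 (E12.5) reached 3 UMIs and were left out by the limits, most at E13.5 for Myog (49) and at E12.5 for Myog and Elavl3 (58 each). Pdgfra itself was found in 228 members (58.8%) at E13.5 and 397 (78.1%) at E12.5.

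Members made up 5.45% of cells at E13.5 (4.94 to 6.01%) and 8.27% at E12.5 (7.60 to 8.99%). The rule counts UMIs, so a deeper cell passes it more easily. When every cell was first thinned to 4000 UMIs the shares were 2.47% at E13.5 and 2.52% at E12.5. The gap between the stages was no longer seen.

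The tendon label was set beside genes that the rule did not use. Members and genes were chosen with earlier results of these data known, so this is a description and not an independent check. With each cell thinned to 4000 UMIs, Mkx was found in 9.02% of members and 1.55% of other Pdgfra cells at E13.5, and in 3.15% of members and 1.56% of the others at E12.5. Unthinned, these shares were 16.2% and 2.84% at E13.5 and 10.04% and 4.41% at E12.5. Thbs4, a thrombospondin of the tendon matrix, was found in 33.5% of members and 8.42% of the others at E13.5, and in 12.01% of members and 4.41% of the others at E12.5, or unthinned in 46.4% and 16.1% at E13.5 and in 20.9% and 10.8% at E12.5. In cells that should lack them, 326 macrophage cells (median 12695.5 UMIs) and 208 neurons (median 6904.5 UMIs) at E13.5 and 91 macrophage cells (18999 UMIs) and 1251 neurons (8611 UMIs) at E12.5, Mkx was found in at most 0.24% and Thbs4 in at most 0.92%. Tnmd was found in at most 0.0799% of those cells, but Scx in 6.39% of the neurons at E12.5 and in a higher share of those at E13.5 (8.33 to 17.8%). Scx UMIs were therefore not limited to mesenchyme in these libraries. Keratocan (Kera) and fibromodulin (Fmod), small leucine-rich proteoglycans of tendon, followed the label in level at E13.5 only: Kera stood at 14.1 CPM in members against 3.44 CPM in the others at E13.5, but at 3.64 CPM in members against 4.72 CPM in the others at E12.5. Unthinned, a Kera UMI was found in only 30 members (7.73%) at E13.5 and 22 (4.33%) at E12.5. Mkx and Thbs4 thus followed the label at both stages.

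**Figure D1:**
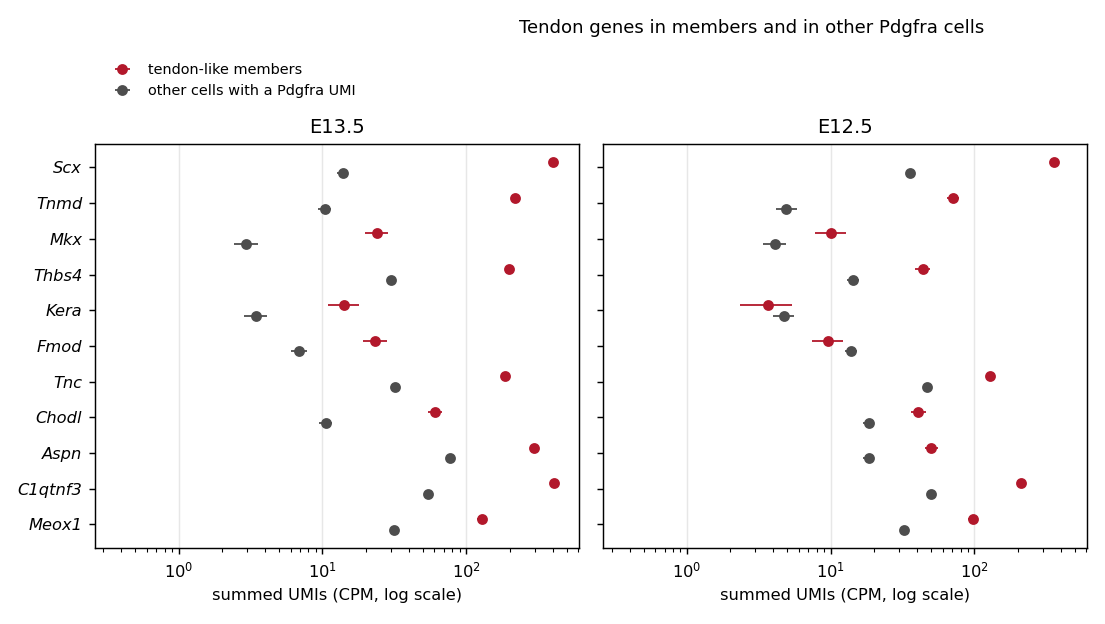
Summed UMI levels (CPM, log axis) of 11 genes in tendon-like members (red) and other cells with a Pdgfra UMI (grey) at E13.5 (left) and E12.5 (right); points are 1 library each and bars are exact Poisson 95% intervals. Scx and Tnmd were used to choose the members; Mkx, Thbs4, Tnc, Chodl, Aspn, C1qtnf3 and Meox1 lie to the right in members at both stages, and Kera and Fmod only at E13.5.

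A gene was counted as past the fold when its log2 ratio between groups was at least 1 in size with at least 50 UMIs over both. At E13.5, 301 of 13306 genes (2.26%) were higher in members past the fold and 585 (4.4%) lower, 6.66% in either direction. At E12.5 the counts were 91 of 13252 (0.687%) higher and 511 (3.86%) lower, 4.54% in either direction, and the median log2 ratio over all genes was -0.06 at E13.5 and -0.02 at E12.5. The transcription factors of tendon come first. Of 11 such factors outside the rule, 4 were higher past the fold at E13.5 and 4 of the 10 with enough UMIs at E12.5, and none was lower. Mkx, Eya1 and Etv4 were among them at both stages.

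Mkx, a homeobox factor needed for tendon collagen in mice, showed the largest ratio of the tendon factors. It stood at 23.9 CPM in members and 2.97 CPM in other Pdgfra cells at E13.5, a log2 ratio of 3.01 (2.62 to 3.41). At E12.5 it stood at 10.1 CPM in members and 4.08 CPM in the others, a log2 ratio of 1.30 (0.85 to 1.74). Eya1, a transcriptional coactivator and phosphatase, had log2 ratios of 2.03 at E13.5 and 1.04 at E12.5. Etv4, an ETS factor that FGF signalling turns on, had log2 ratios of 1.62 at E13.5 and 1.17 at E12.5. Six2 and Egr1 did not pass the fold: Six2 had log2 ratios of -0.11 at E13.5 and -0.37 at E12.5, while Egr1 had ratios of -0.01 and 0.03.

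Among 15 genes of the tendon matrix outside the rule, 7 of the 14 with enough UMIs at E13.5 were higher in members past the fold, and 4 of 13 at E12.5. The median log2 ratio of the list was 1.28 at E13.5 and 0.25 at E12.5. Thbs4, Tnc, Chodl and Aspn passed at both stages. Thbs4 had log2 ratios of 2.73 (2.60 to 2.86) at E13.5 and 1.61 (1.39 to 1.83) at E12.5. Tenascin-C (Tnc), an anti-adhesive glycoprotein of tendon and of the muscle-tendon junction, stood at 186 CPM in members and 32.1 CPM in other Pdgfra cells at E13.5, and at 128 and 46.8 CPM at E12.5. Chodl, a C-type lectin, stood at 60.8 CPM in members and 10.5 CPM in the others at E13.5, and at 40.6 and 18.4 CPM at E12.5. Asporin (Aspn), a leucine-rich proteoglycan that binds collagen, stood at 297 CPM in members and 77.0 CPM in the others at E13.5, and at 50.3 and 18.4 CPM at E12.5. These 4 matrix genes were higher in members at both stages, with a smaller ratio at the earlier one.

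The other tendon matrix genes did not separate the groups at both stages. Kera, Fmod and the myotendinous collagen Col22a1 passed the fold at E13.5, with log2 ratios of 2.03, 1.75 and 1.83. At E12.5 the ratios were -0.38 for Kera, -0.53 for Fmod and 0.25 for Col22a1. With cells thinned before the rule was applied the Fmod ratio at E12.5 was 0.82, so its direction there depends on which cells pass. Ecrg4, which codes for a small secreted protein, was lower in members at E12.5 at 3.79 CPM, against 14.5 CPM in the others. Decorin (Dcn) and lumican (Lum), proteoglycans of loose connective tissue as well as tendon, had ratios below 0 at both stages: -0.42 and -0.36 for Dcn at E13.5 and E12.5, and -0.71 and -0.43 for Lum. Periostin (Postn) had log2 ratios of 0.81 at E13.5 and 0.40 at E12.5. Comp, a matrix protein of mature tendon, had 0 UMIs in members of either library, which allows up to 0.774 CPM at E13.5 and 0.537 CPM at E12.5, beside 5 and 17 UMIs in the other cells.

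The promoters of Tnmd and of 3 tendon matrix genes whose levels differed by stage are shown because Scx is a basic helix-loop-helix factor, a class that binds E-boxes (CANNTG). The windows are 250 bases before to 50 after the annotated start, from RefSeq on GRCm38.p6, read in the direction of the gene, and capitals mark each CANNTG match. CANNTG is its own reverse complement, so 1 search covers both strands. Tnmd lies at chrX:133850758-133851057 on the plus strand, Thbs4 at chr13:92794769-92795068 on the minus strand, Fmod at chr1:134037004-134037303 on the plus strand and Kera at chr10:97606955-97607254 on the plus strand. The build differs from that of the count matrices, and no measurement was made at these windows.
Tnmd: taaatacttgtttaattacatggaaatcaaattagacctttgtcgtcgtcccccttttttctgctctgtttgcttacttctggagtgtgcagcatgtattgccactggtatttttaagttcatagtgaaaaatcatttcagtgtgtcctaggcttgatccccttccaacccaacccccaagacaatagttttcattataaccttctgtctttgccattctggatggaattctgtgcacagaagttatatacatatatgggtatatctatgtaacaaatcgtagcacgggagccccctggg
Thbs4: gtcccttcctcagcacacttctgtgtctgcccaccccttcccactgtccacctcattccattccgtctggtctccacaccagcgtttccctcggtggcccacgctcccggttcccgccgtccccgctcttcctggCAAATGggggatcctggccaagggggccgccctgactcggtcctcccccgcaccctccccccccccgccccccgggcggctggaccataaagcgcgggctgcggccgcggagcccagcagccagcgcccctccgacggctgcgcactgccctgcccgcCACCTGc
Fmod: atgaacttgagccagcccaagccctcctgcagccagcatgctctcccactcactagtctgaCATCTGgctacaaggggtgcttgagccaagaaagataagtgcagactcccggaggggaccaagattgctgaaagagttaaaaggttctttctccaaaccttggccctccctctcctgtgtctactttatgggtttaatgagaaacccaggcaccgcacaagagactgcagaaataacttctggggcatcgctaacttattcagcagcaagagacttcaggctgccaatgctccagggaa
Kera: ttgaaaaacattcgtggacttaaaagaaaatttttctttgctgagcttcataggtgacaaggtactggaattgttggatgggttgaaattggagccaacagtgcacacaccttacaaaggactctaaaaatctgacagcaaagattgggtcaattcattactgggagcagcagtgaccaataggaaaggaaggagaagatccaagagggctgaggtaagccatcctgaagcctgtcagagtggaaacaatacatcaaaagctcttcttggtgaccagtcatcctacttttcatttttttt
Thbs4 held 2 matches, CAAATG at 115 bases before the start and CACCTG at position 44 after it, Fmod held 1, CATCTG at 189 bases before the start, and Tnmd and Kera held 0. Of all 32851 promoter windows of this length in the table, 23756 (72.3%) held at least 1 match. A match is a description of the letters, and its absence says only that they are not in this window.

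Collagen genes did not set the members apart. Of 14 fibrillar and associated collagens, 1 was higher past the fold at E13.5 (Col11a1) and 0 of 13 at E12.5, with median log2 ratios of -0.11 and -0.04. Col1a1, the main chain of tendon collagen, stood at 2689 CPM in members and 2661 CPM in other Pdgfra cells at E13.5, and at 1157 and 1066 CPM at E12.5, so its RNA was about as high outside the members. Col11a1, which helps to set fibril diameter, stood at 195 CPM in members and 83.8 CPM in the others at E13.5, and at 126 and 150 CPM at E12.5, where its ratio of -0.25 came to 0.26 against comparison cells held to the members' limits. Col12a1 and Col14a1, which coat fibrils, had log2 ratios of 0.85 and -0.12 at E13.5 and of -0.04 and -0.05 at E12.5. Among 20 collagen-processing enzymes and chaperones only P4ha3, a prolyl hydroxylase subunit, passed the fold, at E13.5 (log2 ratio 1.09, against 0.77 at E12.5). Of 13 elastic fibre genes, Mfap4 was higher at E13.5 (575 CPM in members against 256 CPM in the others) and Efemp1 was lower at both stages (log2 ratios -1.04 and -1.05).

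Of 14 genes of TGF-beta signalling, 5 were higher in members past the fold at E13.5 (Ccn2, Tgfbi, Skil, Tgfb3 and Tgfb2), 1 was lower (the co-receptor Tgfbr3) and 8 lay within the fold, with a median log2 ratio of 0.45. At E12.5, 1 of 13 passed, Tgfb3, and the median was 0.22. The ligand Tgfb2, which mouse tendon progenitors need, stood at 254 CPM in members and 106 CPM in other Pdgfra cells at E13.5, and at 269 and 164 CPM at E12.5, with log2 ratios of 1.26 (1.17 to 1.36) and 0.71 (0.63 to 0.79). The ligand Tgfb3 stood at 53.3 CPM in members and 20.5 CPM in the others at E13.5, and at 41.8 and 20.1 CPM at E12.5. Both ligands were thus higher in members at both stages, Tgfb2 within the fold at E12.5. The targets Skil, a feedback repressor of the pathway, and Tgfbi, a matrix protein, had log2 ratios of 1.40 and 1.43 at E13.5 and of 0.93 and 0.82 at E12.5. Ccn2, a matricellular target, stood at 17.4 CPM in members and 4.27 CPM in the others at E13.5, but at 10.8 and 14.6 CPM at E12.5. Against comparison cells held to the same limits on Col2a1, Myog, Myf5 and Elavl3, the Ccn2 ratio at E12.5 was 0.75 in place of -0.44.

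Of 14 FGF genes, Fgf9 was higher past the fold at E13.5 (11.1 CPM in members against 1.52 CPM in the others), and it had a log2 ratio of 0.88 at E12.5. Fgf10 was lower past the fold at E13.5 and Fgfr3 at E12.5. Of 16 BMP and GDF ligands and antagonists, Bmp5, Grem1 and Chrdl1 were higher at E13.5 (log2 ratios 1.20, 1.14 and 1.23) and none at E12.5, while follistatin (Fst), an antagonist of activins and BMPs, was lower at both stages (-1.63 and -1.33). Of 14 WNT genes, Tcf7, Lef1, Nkd1 and Wnt5a were lower past the fold at E13.5 and Dkk3 higher, and at E12.5 Lef1 and Nkd1 of 13 were lower, with list medians of -0.49 at E13.5 and -0.51 at E12.5. Lef1, a transcription factor of WNT signalling, stood at 9.44 CPM in members and 26.4 CPM in the others at E13.5, and at 11.51 and 31.3 CPM at E12.5. Nkd1, a feedback inhibitor that WNT signals turn on, had log2 ratios of -1.20 at E13.5 and -1.33 at E12.5. Among 19 guidance and attraction genes, 5 were lower past the fold at E13.5 (Nrp1, Cxcl12, Robo2, Sema3d and Ntn1) and 1 was higher (Sema3e), while at E12.5 1 was lower, Nrp1. The receptor Nrp1 stood at 21.2 CPM in members against 98.5 CPM in the others at E13.5 and 20.7 against 58.6 CPM at E12.5, and the chemokine Cxcl12 had log2 ratios of -1.58 and -0.85. The receptor Robo2 and the secreted cues Sema3d and Ntn1 had ratios of -1.11, -1.11 and -1.09 at E13.5 and of -0.23, -0.54 and -0.43 at E12.5. The semaphorin Sema3e had a ratio of 1.31 at E13.5, from 18 UMIs in members, which was 0.17 with a mitochondrial maximum of 5%, and -0.64 at E12.5.

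The members also differed from the other Pdgfra cells in transcription factors of connective tissue. Meox1, a homeobox factor of the somite and its sclerotome, stood at 129 CPM in members and 31.6 CPM in other Pdgfra cells at E13.5, and at 97.3 and 32.5 CPM at E12.5, with log2 ratios of 2.02 (1.88 to 2.17) and 1.58 (1.44 to 1.73). Osr1, Osr2 and Tbx15, factors of muscle connective tissue and dermis, were lower past the fold at both stages. Osr1 stood at 43.4 CPM in members and 144 CPM in the others at E13.5, and at 52.0 and 157 CPM at E12.5. Osr2 had log2 ratios of -2.34 at E13.5 and -1.23 at E12.5, while Tbx15 had ratios of -1.68 and -1.44. In the list of 16 connective tissue factors these made 1 higher and 3 lower at E12.5, and at E13.5 the count was 3 higher (Meox1 and Meox2 among them) and 4 lower (with Shox2) of 15. Tbx5, a factor of forelimb and shoulder mesenchyme, and Tbx18 went opposite ways at the stages: Tbx5 had log2 ratios of -0.86 at E13.5 and 0.68 at E12.5, while Tbx18 had ratios of -0.81 and 0.65.

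Sox9, which tendon-bone attachment progenitors share with cartilage, did not separate the groups, at 75.1 CPM in members and 77.0 CPM in other Pdgfra cells at E13.5 and at 157 and 149 CPM at E12.5. Of 8 sclerotome genes with enough UMIs, Uncx was higher at E13.5 and Foxc2 lower, and at E12.5 Foxc2 and Foxd2 were lower. Pax1, a sclerotome factor, had log2 ratios of 0.94 at E13.5 and -0.20 at E12.5. Of 13 attachment and cartilage genes with enough UMIs at E13.5, Sox6, Matn4 and Col9a2 were higher in members past the fold and Matn1 was lower. At E12.5 the cartilage genes Matn1, Acan, Matn3, Hapln1, Col9a1 and Col9a3 were lower in members, but the limit on Col2a1 had acted on the members alone. Against comparison cells held to the same limits, the ratio of Col9a1 at E12.5 was 0.35 in place of -1.07, that of Col9a3 1.01 in place of -1.05, and that of Hapln1 -0.04 in place of -2.54. The same held for Hoxb8 and Hoxb9, positional genes with log2 ratios of -1.50 and -1.92 at E12.5 that came to 0.45 and 0.27 under equal limits. The 20 S phase genes and the 20 genes of G2 and M phase held 0 past the fold at either stage.

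**Figure D2:**
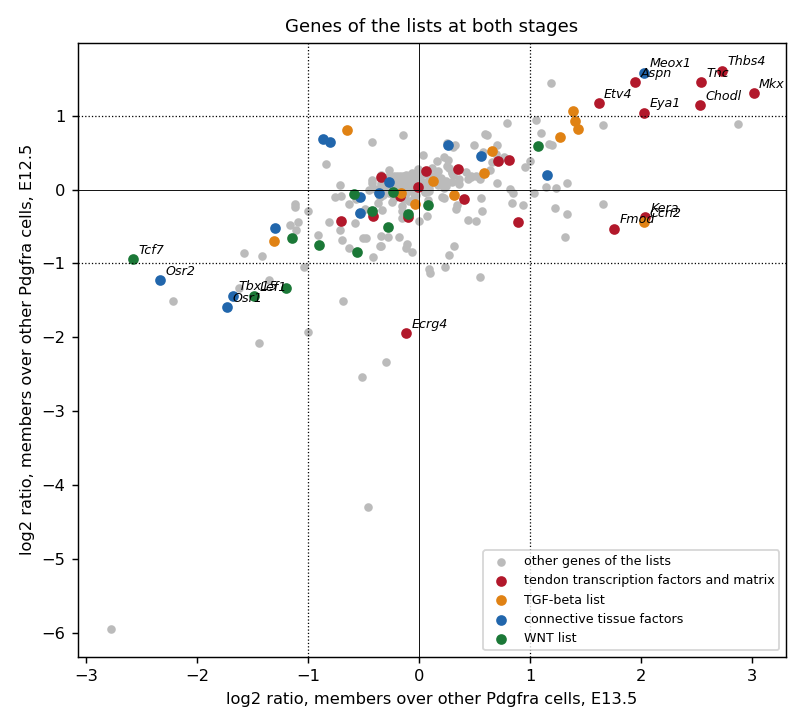
Log2 ratio of members over other Pdgfra cells at E13.5 (x axis) and E12.5 (y axis) for genes of the lists reported here, each point 1 gene; dotted lines mark a ratio of 1 or -1. Thbs4, Mkx, Tnc, Meox1, Aspn, Chodl, Eya1 and Etv4 lie past the fold upward at both stages, Osr1, Osr2, Tbx15 and Lef1 past it downward, and Kera, Fmod and Ccn2 are high at E13.5 only.

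Genes outside the rule with a UMI in at least 10% of members of both libraries were then ranked by the smaller of the 2 ratios. The 15 highest at both stages were C1qtnf3, Thbs4, Meox1, Tnc, Aspn, Mkx, Rasl11b, Lor, Krt18, Shisa2, Chodl, Zfp185, Pamr1, Rgcc and Nfatc1. C1qtnf3, a secreted protein of the C1q and TNF family, led them, at 411 CPM in members and 54.1 CPM in other Pdgfra cells at E13.5 and at 211 and 50.2 CPM at E12.5. In thinned cells it was found in 44.6% of members and 7.96% of the others at E13.5, and in 21.9% and 7.48% at E12.5, or unthinned in 54.6% and 12.7% at E13.5 and in 31.3% and 12.7% at E12.5. Rasl11b, a small GTPase of the Ras family, stood at 121 CPM in members and 30.6 CPM in the others at E13.5, and at 114 and 46.2 CPM at E12.5. Lor and Krt18 are best known from epidermis and simple epithelia: Lor stood at 19.5 CPM in members and 5.85 CPM in the others at E13.5, and Krt18 at 13.6 and 5.46 CPM. The summed level of the epidermal markers Epcam, Krt5 and Krt14 was 56.6 CPM in members and 25.7 CPM in the others at E13.5, and 30.0 and 23.1 CPM at E12.5. With cells that held genes of other types left out the Krt18 ratio was 0.95 in place of 1.32 at E13.5 and 0.96 in place of 1.19 at E12.5. The part of other cells' RNA in the Lor and Krt18 values was otherwise not tested. Zfp185, an actin-associated LIM protein, had log2 ratios of 2.57 at E13.5 and 1.13 at E12.5. Nfatc1, a calcineurin-dependent transcription factor, had ratios of 1.70 and 1.09.

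The 10 lowest were taken among genes with a UMI in at least 10% of the other Pdgfra cells of both libraries. They were Rtn1, Nrgn, Irx1, Apcdd1, Lix1, Cdh6, Osr1, Gm56862, Nrp1 and Lef1. Irx1, a homeobox factor, stood at 28.9 CPM in members and 127 CPM in other Pdgfra cells at E13.5, and at 20.2 and 69.2 CPM at E12.5. Apcdd1, an inhibitor of WNT signalling, had log2 ratios of -2.11 at E13.5 and -1.74 at E12.5, while the adhesion gene Cdh6 had ratios of -1.62 and -1.60. Rtn1, a reticulon abundant in neurons, was the exception: its ratios of -2.04 at E13.5 and -2.93 at E12.5 came to -0.62 and -0.08 against comparison cells held to the members' limits. Nrgn, a calmodulin-binding protein also known from neurons, did not follow it, with -2.80 and -1.84 under equal limits. The neuron markers Stmn2 and Tubb3 summed to 39.2 CPM in members and 62.4 CPM in the others at E13.5 and to 53.9 and 180 CPM at E12.5.

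Among themselves the members varied in how much Scx and Tnmd RNA they held. At E13.5, 165 members had 3 to 4 UMIs of the pair, 137 had 5 to 9 and 86 had 10 or more; at E12.5 the numbers were 250, 192 and 66. Median depth went with this number, at 9463, 9971 and 12154.5 UMIs at E13.5 and 11093, 12017.5 and 13046 UMIs at E12.5. Haemoglobin stood at 4853, 22305 and 4215 CPM in the strata of E13.5. The part of either in the levels was not tested. At E13.5 Thbs4 stood at 90.5, 146 and 446 CPM in these strata, low to high, and at E12.5 at 26.4, 50.6 and 79.3 CPM. Mkx stood at 13.3, 13.7 and 54.6 CPM at E13.5 and at 7.77, 10.8 and 15.1 CPM at E12.5. The upper stratum held 66 of the 114 Mkx UMIs of the members at E13.5. Kera stood at 3.07, 6.23 and 42.2 CPM at E13.5, while at E12.5 the levels were 4.66, 3.09 and 1.89 CPM, with intervals that overlapped. Sox9 ran the other way at E13.5, at 90.5, 79.2 and 44.7 CPM, and Col1a1 stood at 2649, 2636 and 2825 CPM.

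**Figure D3:**
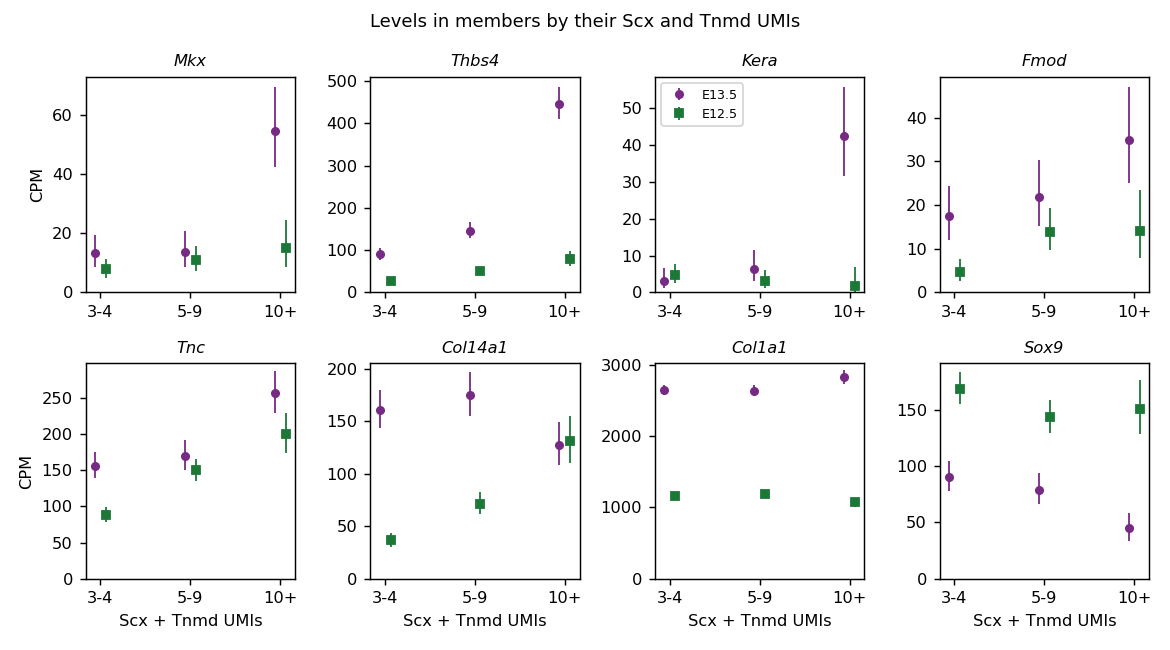
Levels (CPM, linear axes from 0) of 8 genes in members grouped by their Scx and Tnmd UMIs (3 to 4, 5 to 9, 10 or more) at E13.5 (purple circles) and E12.5 (green squares); bars are exact Poisson 95% intervals. Thbs4 and Tnc are highest in the upper stratum at both stages, Mkx and Kera stand out in that stratum at E13.5 (54.6 and 42.2 CPM), and Col1a1 is level across strata.

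Cells with and without Tnmd were then set apart. At E13.5, 135 members held Scx without Tnmd, 196 held both and 57 held Tnmd without Scx; at E12.5 the numbers were 369, 99 and 40. Members with a Tnmd UMI thus made up 65.2% at E13.5 and 27.4% at E12.5. Since Tnmd is a gene of the rule, what follows describes these cells. Of 8173 genes with enough UMIs at E13.5, 80 (0.979%) were higher and 54 (0.661%) lower past the fold in members with Tnmd than in those without; at E12.5, of 9452 genes, 155 (1.64%) were higher and 208 (2.2%) lower, 3.84% in either direction. Median depth was 10141 UMIs with Tnmd and 10068 without it at E13.5, and 13940 and 11060 at E12.5. Kera kept to members with Tnmd at E13.5, at 21.2 CPM with Tnmd and 0.602 CPM without it, but at E12.5 it stood at 4.65 and 3.18 CPM. C1qtnf3 stood at 493 CPM with Tnmd and 256 CPM without it at E13.5, and at 425 and 114 CPM at E12.5. Apod, a lipid-binding secreted protein, and Tac1, the precursor of substance P, were higher with Tnmd at both stages, with log2 ratios of 1.87 and 1.72 at E13.5 and of 3.34 and 1.98 at E12.5. Hoxa10, a posterior Hox gene, and Wt1, a factor of mesothelium and of diaphragm connective tissue, were lower with Tnmd. Hoxa10 stood at 3.86 CPM with Tnmd and 28.9 CPM without it at E13.5, and at 3.25 and 28.0 CPM at E12.5. Wt1 stood at 2.57 and 26.5 CPM at E13.5 and at 4.65 and 21.4 CPM at E12.5.

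The 57 members at E13.5 and 40 at E12.5 that held Tnmd without Scx differed from those with Scx in the genes named here. Of 8062 genes with enough UMIs at E13.5, 162 were higher and 264 lower past the fold without Scx, so most lay within it. Most genes lay within the fold at E12.5 too, and more were lower than higher past it. Thbs4 stood at 63.3 CPM in the members without Scx and 225 CPM in members with Scx at E13.5. Its levels at E12.5 were 4.53 and 47.9 CPM, where the value without Scx rests on 3 UMIs. Among the 10 genes with the highest ratio at both stages were Ptx3, a secreted pattern-recognition protein, at 108 CPM without Scx and 24.9 CPM with Scx at E13.5 and at 348 and 53.7 CPM at E12.5, and Osr2, at 36.9 and 7.48 CPM at E13.5 and at 22.6 and 7.74 CPM at E12.5. Efemp1 (73.9 against 21.9 CPM at E13.5, 115 against 30.0 CPM at E12.5), Apcdd1 (52.8 against 15.0 CPM, 51.3 against 9.51 CPM) and Cdh6 were others. Osr2, Efemp1, Apcdd1 and Cdh6 are genes that were lower in members than in the other Pdgfra cells. Tcf15, a helix-loop-helix factor of the somite, was among the 10 lowest, from 2 UMIs in each library (2.64 against 19.4 CPM at E13.5, 3.02 against 30.5 CPM at E12.5). With these cells left out, an alternative added after the data were seen, the Mkx ratio of members over other Pdgfra cells was 3.17 at E13.5 and 1.32 at E12.5.

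Which members held Tnmd also went with other transcription factors, chosen for display after their values were seen. In cells thinned to 4000 UMIs, Tnmd was found at E12.5 in 36.3% of the 124 members with Zic1 (27.8 to 45.4%), a zinc-finger factor of dorsal and axial mesoderm, and in 13.3% of the 384 without it. For Shox2, a factor of proximal limb and shoulder mesenchyme, Tnmd at E12.5 was found in 3.90% of the 77 members with it (0.811 to 10.97%) and in 21.6% of the 431 without it. Tnmd at E12.5 was thus more frequent beside Zic1 and rarer beside Shox2. For Meox1 the shares at E12.5 were 5.88% of 136 members with it and 23.7% of 372 without it, and for Tbx5 they were 7.84% of 102 and 21.7% of 406. At E13.5 these contrasts were smaller or not seen. Tnmd was then found in 46.7% of the 30 members with Shox2 and 45.3% of the 358 without it, in 45.1% of the 142 with Meox1 and 45.5% of the 246 without it, and in 56.5% of the 85 with Zic1 and 42.2% of the 303 without it. Tnmd was found in 0 of 13 members with Hoxa10 at E13.5 (at most 24.7%) and 0 of 27 at E12.5 (at most 12.8%). Without Hoxa10 it was found in 46.9% of 375 members at E13.5 and 20.0% of 481 at E12.5. Unthinned, Tnmd was found in 39.3% of members with Hoxa10 and 67.2% of those without it at E13.5, and in 7.14% and 29.9% at E12.5. The lack of overlap was thus seen in thinned cells only, at both stages. The unthinned shares with and without Zic1 were 75% and 59.4% at E13.5 and 48.9% and 14.7% at E12.5. Those for Shox2 were 64.5% and 65.3% at E13.5 and 11.7% and 31.7% at E12.5, those for Meox1 were 61.1% and 70.3% at E13.5 and 16.2% and 37.0% at E12.5, and those for Tbx5 were 63.0% and 65.5% at E13.5 and 13.4% and 34.0% at E12.5.

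**Figure D4:**
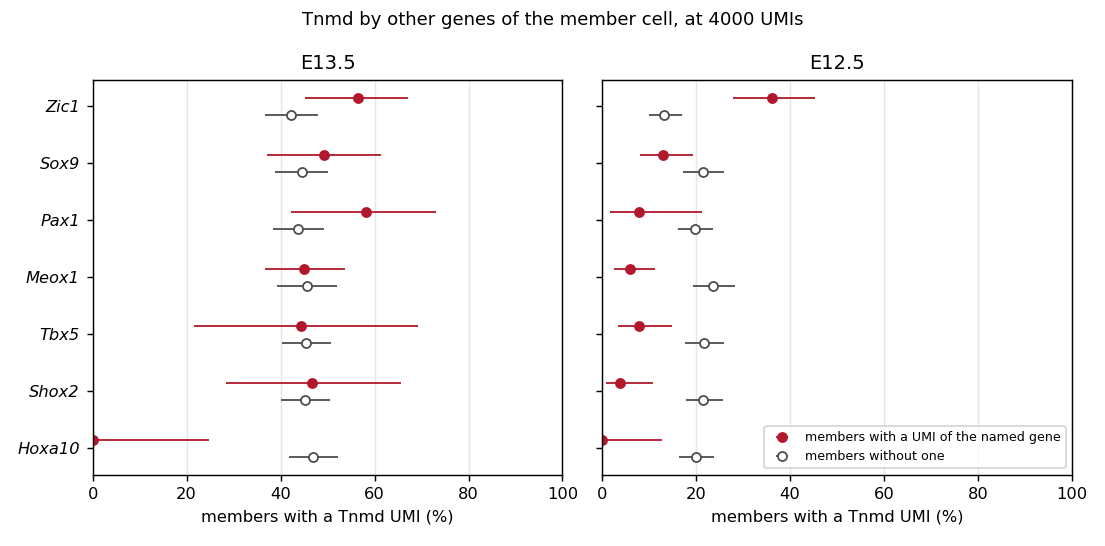
Share of members with a Tnmd UMI (%, after thinning each cell to 4000 UMIs) among members with (red, filled) and without (open) a UMI of the named gene, at E13.5 (left) and E12.5 (right); bars are exact binomial 95% intervals over cells of 1 library. At E12.5 the share is 36.3% with Zic1 and 3.90% with Shox2, and at E13.5 Shox2, Meox1 and Tbx5 have pairs that lie close together, while Hoxa10 has 0 of 13. Tnmd is a gene of the rule, so the shares describe the chosen cells only.

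Variation from member to member was read as the ratio of variance to mean in cells thinned to 4000 UMIs. It was ranked among genes with a UMI in at least 10% of members of both libraries, without haemoglobin, mitochondrial and ribosomal protein genes. The highest were Malat1, Fabp7, Ptn, Tmsb4x, C1qtnf3, Igfbp5, H1f5, Otor, Acta2, Hmgb2, Crabp1, H2az1, Ube2c, Col1a1 and Pclaf. Hmgb2, H1f5, H2az1, Ube2c and Pclaf are genes of dividing cells. C1qtnf3 was again among them, with ratios of 6.91 at E13.5 and 6.76 at E12.5. Fabp7, a fatty acid binding protein known from glia, had ratios of 42.5 at E13.5 and 15.3 at E12.5. At E13.5 it stood at 421 CPM in members with Scx and no Tnmd, 49.8 CPM in members with both and 44.9 CPM in those with Tnmd alone. In barcodes of 50 to 500 UMIs, taken as free RNA, Fabp7 stood at 1959 CPM at E13.5 and 2164 CPM at E12.5. The part of free RNA in its variation was not tested.

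Between the stages, members at E13.5 were set against members at E12.5, with the same ratio in the other Pdgfra cells beside it. In members 233 of 10765 genes (2.16%) were higher at E13.5 past the fold and 243 (2.26%) lower, and in the other cells 467 of 14271 (3.27%) were higher and 596 (4.18%) lower, 4.42% of genes in members and 7.45% in the other cells in either direction. The median log2 ratio over all genes was -0.11 in members and -0.09 in the other cells. Of 12 tendon matrix genes with enough UMIs in members, 9 were higher at E13.5 and 0 lower, with a median of 1.53. In the other cells 5 of 14 were higher and 1 lower, with a median of 0.52. Markers of some other cell types were higher at E13.5 as well. The erythroid markers summed to 3193 CPM in members at E13.5 against 374 CPM at E12.5, and to 2259 against 948 CPM in the other cells. The epidermal markers summed to 56.6 CPM in members at E13.5 against 30.0 CPM at E12.5, and to 25.7 against 23.1 CPM in the other cells. Their median ratios were 2.43 in members and 0.54 in the other cells. In members Krt5 and Krt14 were higher past the fold, while Epcam lay within it. The macrophage markers had median ratios of 2.65 in members and 1.94 in the other cells. With cells that held at least 3 UMIs of the 12 genes of other types left out, which hold no erythroid gene, the Aspn, Thbs4 and Postn ratios in members were 2.53, 2.25 and 2.01, against 2.56, 2.19 and 2.01 with all members. Stage, sex and library cannot be told apart here, and the shift toward members with Tnmd goes along with them.

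Aspn, Ecrg4, Thbs4 and Postn had the largest stage ratios of the matrix list in members. Aspn stood at 297 CPM at E13.5 and 50.3 CPM at E12.5 in members (log2 ratio 2.56) and had a ratio of 2.07 in the other cells. Thbs4 stood at 199 CPM at E13.5 and 43.7 CPM at E12.5 in members, a log2 ratio of 2.19 (2.00 to 2.38), against 1.07 (0.91 to 1.24) in the other cells. The Thbs4 ratio was 2.78 in members with Tnmd and 1.65 in members without it. Postn had ratios of 2.01 in members and 1.60 in the other cells, and Thbs2, a further thrombospondin, of 1.79 and 1.47. These genes were higher at E13.5 in members and in the other Pdgfra cells. Col1a1, Col14a1 and Dcn had ratios of 1.22, 1.29 and 1.27 in members and of 1.32, 1.35 and 1.33 in the other cells.

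A smaller group was higher at E13.5 in members and lower at E13.5 in the cells around them. Mkx stood at 23.9 CPM at E13.5 and 10.1 CPM at E12.5 in members (log2 ratio 1.25, 0.81 to 1.70), and its ratio in the other cells was -0.46 (-0.85 to -0.07). Kera had ratios of 1.95 in members and -0.46 in the other cells, Fmod of 1.28 and -1.01, and Ccn2 of 0.69 and -1.78. Tnc and Chodl, within the fold, had ratios of 0.54 and 0.58 in members and of -0.54 and -0.81 in the other cells. Held to the members' limits, the other cells still had ratios below 0, at -0.44 for Mkx, -0.67 for Kera, -0.98 for Fmod and -0.63 for Ccn2. For Mkx the interval then included 0 (-0.90 to 0.02). Among members with Xist and no Y-linked UMI, 369 at E13.5 and 122 at E12.5, the Mkx ratio was 0.29 and the Kera ratio 1.95, so the size of the Mkx difference rests on which cells of the E12.5 pool are compared. In members without Tnmd the Kera ratio was -2.40, from 1 UMI at E13.5 and 15 at E12.5. With cells thinned before the rule was applied, the ratios in members were 0.06 for Fmod and 0.01 for Ccn2.

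**Figure D5:**
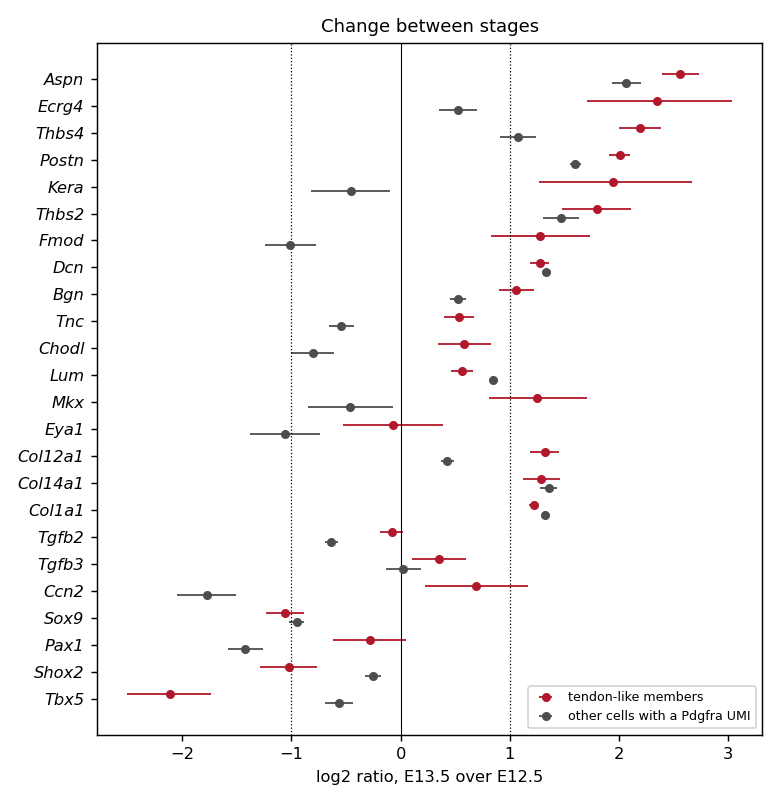
Log2 ratio of E13.5 over E12.5 for genes of the lists in members (red) and in other Pdgfra cells (grey), with exact 95% intervals for counting error; dotted lines mark 1 and -1. Mkx, Kera, Fmod, Tnc, Chodl and Ccn2 lie above 0 in members and below 0 in the other cells, while Col1a1, Col14a1 and Dcn lie close together.

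Genes outside the excluded classes were ranked between the stages where they had at least 100 UMIs. A UMI in at least 10% of members of the stage with the higher level was also required. The 12 highest at E13.5 in members were Gm12166, Fndc1, Anxa1, Aspn, Plac9, Htra3, Ecrg4, Atp1b1, Mfap5, Thbs4, Itga4 and Postn. Fndc1, a fibronectin type III protein, stood at 26.6 CPM at E13.5 and 2.62 CPM at E12.5 in members, a ratio of 3.34 against 1.35 in the other cells. Htra3, a secreted serine protease, had ratios of 2.48 in members and 1.19 in the other cells, while Gm12166 (3.94 and 4.12) and Mfap5 (2.25 and 2.37) moved alike in both. The 12 lowest were Rnaset2b, Crym, Hsd11b2, Lrrtm1, Npy, Tbx5, Pcp4, Stc1, Nefm, Hoxa4, Ephb1 and Mecom. Rnaset2b, a ribonuclease gene with near-identical copies among which reads can be split, stood at 1.05 CPM at E13.5 and 23.0 CPM at E12.5 in members, with ratios of -4.46 in members and -4.53 in the other cells. Tbx5 stood at 14.3 CPM at E13.5 and 61.6 CPM at E12.5 in members, a ratio of -2.11 against -0.56 in the other cells. Its ratio was -0.53 in members with Tnmd and -2.59 in those without. Shox2 likewise had a ratio of -1.03 in members as a whole, of -1.50 in those without Tnmd and of 1.43 in those with Tnmd. Npy and Nefm are genes of neurons and neural crest.

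Of 16 immediate early genes, 6 were higher at E13.5 in members (median 0.98), beside 12 of 18 in the other cells (median 1.39), with Egr1 at 1.35 and 1.38. Of 7 sclerotome genes in members, 4 were lower at E13.5 (Pax9, Foxc1, Foxd1 and Foxc2), beside 7 of 8 in the other cells. Sox9 had ratios of -1.06 in members and -0.95 in the other cells. Of 8 attachment and cartilage genes in members 3 were lower (median -0.82), beside 10 of 14 in the other cells (median -1.85). Of 15 connective tissue factors in members 1 was higher and 4 were lower (Tbx5, Lmx1b, Tbx18 and Shox2), beside 1 higher and 1 lower of 16 in the other cells. Of 13 TGF-beta genes in members 0 passed the fold between stages, and of 12 collagens Col12a1, Col14a1, Col1a1 and Col6a3 were higher at E13.5. Hoxa4, Hoxa5 and Hoxb5 were lower at E13.5 in members, with ratios of -1.69, -1.54 and -1.23. The summed CPM of the 20 G2 and M phase genes was 2111 at E13.5 and 2440 at E12.5 in members, and 2326 and 2190 in the other cells, with median ratios of -0.25 in members and 0.04 in the other cells and 0 genes past the fold in either.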

How the data were processed

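Dissociated trunks (TrypLE, with 3 littermates pooled per stage) were run on a 10x Chromium 3' kit of version 3.1, per the labels' protocols. The deposited matrices hold raw UMI counts per gene and barcode, which the authors generated using Cell Ranger 8.0.1 and the build GRCm39, per the submitters' processing notes. For the annotation, the release was not given in the sources used here. All barcodes are listed, so cells were taken as those with at least 4000 UMIs and 500 genes and at most 10% mitochondrial UMIs. The libraries of E13.5 and E12.5 hold 113402193 and 94155624 UMIs. Members and gene lists were chosen with earlier results of these data known.

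UMIs were summed per group and compared as log2 ratios of CPM, with exact conditional binomial intervals for ratios, Poisson intervals for levels and Clopper-Pearson intervals for shares, all at 95% and for counting error only. With 1 library per stage no test was run. Shares of cells with a UMI were taken after thinning each cell to 4000 UMIs. Named outside the 20 lists were the 15 highest and 10 lowest genes of members against other Pdgfra cells at both stages, the 12 highest and lowest between stages (at least 100 UMIs, haemoglobin, Xist, Y-linked, mitochondrial and ribosomal protein genes left out), and the 15 most variable, each with a UMI in at least 10% of the cells concerned. Doublets were called with scrublet in scanpy 1.11.5, kept in the main values and left out in an alternative. The 26 symbols that stand for more than 1 gene were kept apart by gene ID. The calculation of ratios and intervals was checked on simulated counts with Poisson error only. Variation between cells was not part of that check. The alternatives changed the member threshold, depth, free RNA, doublets, cells with genes of other types, the mitochondrial maximum, scaling, the UMI filter, the comparison cells, sex and Tnmd. Promoters came from RefSeq on GRCm38.p6, where 4 of the 4 genes shown were matched.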

Additional observations from a re-analysis of the deposited data

Results flagged for a closer look

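The values below stood out because a log2 ratio had opposite signs in 2 groups, with both 95% intervals clear of 0 and at least 1 of the ratios at 1 or more in size, among the genes named here. There is 1 library per stage and none of these differences was tested.

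Members over other Pdgfra cells met this across the stages for 6 genes. The log2 ratios were 1.75 at E13.5 and -0.53 at E12.5 for Fmod, 1.22 and -0.25 for Col11a1, 2.03 and -0.44 for Ccn2, and 1.33 and -0.34 for Matn4, a cartilage matrilin. They were 0.29 and -1.70 for Fndc1 and -0.84 and 1.081 for Lrrtm1. Against comparison cells held to the members' limits the E12.5 ratios of Col11a1, Ccn2 and Matn4 were 0.26, 0.75 and 1.14.

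E13.5 over E12.5 met it across members and the other Pdgfra cells for 5 genes. The log2 ratios were 1.25 in members and -0.46 in the other cells for Mkx, 1.95 and -0.46 for Kera, 1.28 and -1.01 for Fmod, 0.69 and -1.78 for Ccn2, and -1.23 and 0.22 for Tbx18. Among members with Xist and no Y-linked UMI the ratios of Mkx and Tbx18 were 0.29 and -0.04.

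The library of E11.5 was used in none of the comparisons above, and 381 of its 6313 cells (6.04%) met the member rule. Of these, 379 held no Tnmd UMI. Thbs4 stood at 0.784 CPM in them and 2.49 CPM in the other Pdgfra cells of E11.5, Mkx at 3.61 and 4.84 CPM, C1qtnf3 at 8.94 and 15.8 CPM, and Meox1 at 84.6 and 40.1 CPM.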

How the results depend on the processing

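Over 135 named genes and their alternatives, 4535 of 5658 values stayed within the counting interval of the main value and 1098 moved further. In the other 25, a main log2 ratio of at least 1 in size changed sign. Sign changes of smaller main ratios are counted among the 4535 and 1098. The share of members was 3.13% at E13.5 and 4.202% at E12.5 with at least 5 Scx and Tnmd UMIs, 8.34% and 12.2% with at least 2, 2.47% and 2.52% after thinning, 11.4% and 19.4% of Pdgfra cells and members, and 3.20% and 6.47% for members with a Pdgfra UMI. Genes past the fold at E13.5 came to 889 lower with at least 5 UMIs, 197 higher after thinning, 197 higher against cells with 3 Pdgfra UMIs, and 3771 higher and 1311 lower with no UMI filter. At E12.5 they came to 137 higher with at least 5 UMIs, 280 lower with cells of other types left out, 312 lower against cells with 3 Pdgfra UMIs, 270 lower under equal limits, and 1711 higher and 1676 lower with no filter. Between stages members had 87 higher and 64 lower after thinning and 2249 and 2782 with no filter.

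For main log2 ratios of at least 1 in size, signs changed as follows, and the cause was not tested. Thinned before the rule, log2 ratios at E13.5 were -0.29 for Runx2, -0.38 for Wt1 and 3.96 for Matn1, those at E12.5 were 0.28 for Acan and 2.22 for Matn3, and those between stages 0.40 for Lmx1b and 0.47 for Hoxa4. In members with a Pdgfra UMI Wt1 was at -0.21 (E13.5), and with a mitochondrial maximum of 5% Matn1 was at 0.44. Under equal limits Matn1 was at 0.13 at E13.5, and at E12.5 the values were 0.35 for Col9a1, 0.45 for Hoxb8, 0.27 for Hoxb9, 0.11 for Matn1, 1.69 for Acan and 1.01 for Col9a3. With cells of other types left out Hoxb8 was at 0.084 and Hoxb9 at 0.19 at E12.5, and in members with an Scx UMI Lrrtm1 was at -0.076. Between stages, members with Tnmd gave 1.43 for Shox2, 0.26 for Pax9, 0.030 for Foxc1 and 0.41 for Mecom, and members without it -2.40 for Kera and 1.02 for Lrrtm1.

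No paired analysis was possible because each stage is 1 library of pooled littermates. Stage, sex and library cannot be told apart, and the member rule counts UMIs, so low genes such as Kera and Col22a1 are limited by depth.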
